A study of Monascus purpureus with 6 samples.

Results

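The 4 genes described here carry the symbols of alcohol, lactate and formate dehydrogenases in Monascus purpureus, a filamentous fungus grown for red pigment and ethanol. They were named by their identifiers, with earlier results of these data known, and are 4 of the 9836 genes in the deposited tables. They are ADH1 (gene-MAP00_001261, alcohol dehydrogenase), DLD1 (gene-MAP00_007444, D-lactate dehydrogenase), FDH1 (gene-MAP00_003135, formate dehydrogenase) and AAD14 (gene-MAP00_002579, aryl-alcohol dehydrogenase). All samples were mycelia of wild-type strain MP2022 at day 1, with 3 metal-ion and 3 control libraries. The label of the metal-ion mycelia gives 0.0 g/L hydrated zinc sulphate and 2.5 g/L hydrated magnesium sulphate, and their titles call this condition optimized. The label of the control mycelia names 2.0 g/L of the zinc salt and 1.0 g/L of the magnesium salt but words them as untreated, so the salt content of the control medium is not settled by the labels. Both salts differ between the labels, and their separate effects cannot be told apart. The study asked which balance of zinc and magnesium favours ethanol and pigment together.

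Fermenting fungi turn pyruvate into acetaldehyde and carbon dioxide with pyruvate decarboxylase, and alcohol dehydrogenase then reduces acetaldehyde to ethanol and returns NAD+ to glycolysis. In Saccharomyces cerevisiae, Adh1 is the main enzyme of that last step and holds zinc in its active site. The other genes are named for enzymes of other oxidation or reduction steps. In S. cerevisiae, Dld1 is a mitochondrial enzyme that oxidises D-lactate to pyruvate and passes electrons to cytochrome c, Fdh1 oxidises formate to carbon dioxide with NAD+, and Aad14 is a putative aryl-alcohol dehydrogenase of the aldo-keto reductase family.

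The libraries held 35314601 to 38927910 counts in metal-ion mycelia and 33638067 to 36537672 in controls. Of 9048 genes tested with edgeR's quasi-likelihood test, 1084 were called changed at a Benjamini-Hochberg adjusted p under 0.05 (12%), 603 of them higher (6.66%) and 481 lower (5.32%) in metal-ion mycelia. Metal-ion replicate 2 differed most from its group, with 118 and 110 as the chi-square of its counts per degree of freedom against the other metal-ion libraries and 36.7 between those, and without it 2829 genes were called. The 23 symbols fixed as markers of conidiation and development, and the 37 of glycolysis, matched no gene in the annotation, so the labelled mycelium was not checked against markers here. In bulk RNA, fewer cells of a type and less RNA per cell cannot be told apart.

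AAD14 RNA was about 3 times as abundant in metal-ion as in control mycelia, and it was the only gene of the 4 that passed the test (1 of 4, against 12% of all tested genes). ADH1, by far the most abundant of the 4, was lower in all 3 metal-ion libraries than in any control, and did not pass. DLD1 had a lower mean and FDH1 a higher mean in metal-ion mycelia, and neither passed. The groups did not overlap in CPM for ADH1, FDH1 and AAD14, 3 of the 4 genes, against 33.3% of tested genes. Without adjustment, all 4 had an edgeR p under 0.05, 2 higher and 2 lower, as had 2621 of the 9048 tested genes.

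**Figure D1:**
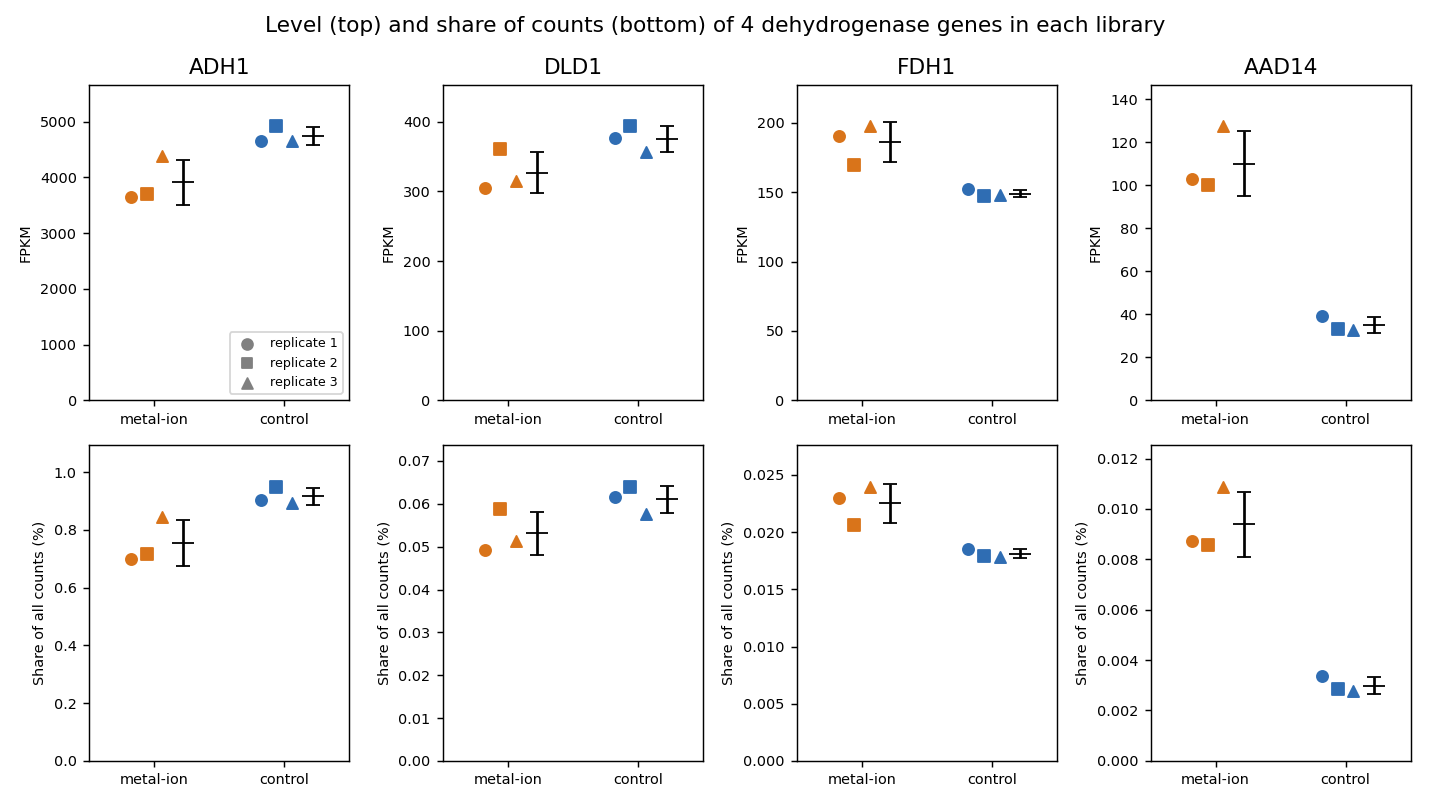
Level in FPKM (top row) and share of all counts in percent (bottom row) of ADH1, DLD1, FDH1 and AAD14 in each of 3 metal-ion (orange) and 3 control (blue) libraries, marked by replicate number, with the mean and SD in black beside them. AAD14 stands at 100 to 128 FPKM in metal-ion and 32.5 to 39.3 FPKM in control libraries, while the DLD1 groups overlap through metal-ion replicate 2.

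ADH1 had 3653, 3706 and 4379 FPKM in metal-ion replicates 1, 2 and 3, against 4651, 4920 and 4647 FPKM in control replicates 1, 2 and 3. All 3 metal-ion libraries lay below the lowest control, and replicate 3 came nearest to it. FPKM is scaled to gene length and library size by the authors, so it allows levels of different genes to be set side by side. By FPKM ADH1 ranked between place 9 and 16 of all genes in metal-ion libraries and between place 9 and 11 in controls. Scaled to library size with a TMM factor (CPM), it averaged 7286 ± 945 CPM in metal-ion and 9519 ± 409 CPM in control mycelia (SD, n = 3 each). The log2 fold change in CPM, metal-ion over control, was -0.39 with an SE of 0.13 (edgeR adjusted p = 0.0899), and had a 95% interval of -0.68 to -0.09 before adjustment. It was called lower by DESeq2 and, in edgeR, when metal-ion replicate 2 was left out (adjusted p = 0.00741 and 0.00865). Those fits called 1582 of 8753 and 2829 of 9138 tested genes, more than the 1084 of 9048 in the reported fit.

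The direction of the ADH1 difference depended on how abundant genes were scaled. Of 89 other genes that with it make up the most abundant 1% of tested genes, 72 had a negative log2 fold change, and their median was -0.27, against 0.03 for all tested genes. With an offset that follows abundance, the log2 fold change of ADH1 was 0.022 ± 0.12 (edgeR adjusted p = 0.928). The direction given for ADH1 therefore holds for scaling by TMM, median of ratios, upper quartile, total counts and FPKM, and flips under the abundance offset. GPD1, the gene with the most counts in every library, averaged 29870 ± 2360 CPM in metal-ion and 35040 ± 1400 CPM in control mycelia and did not reach the threshold (log2 fold change -0.23 ± 0.13, edgeR adjusted p = 0.274). Its sign also turned under the abundance offset, at 0.32 ± 0.14 (edgeR adjusted p = 0.163), and without metal-ion replicate 2 it was called lower (edgeR adjusted p = 0.0284). With any other library left out GPD1 was not called. The symbol GPD1 is used for glycerol-3-phosphate dehydrogenase in S. cerevisiae and for glyceraldehyde-3-phosphate dehydrogenase in other fungi, and the annotation used here does not say which.

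DLD1 had 305, 361 and 315 FPKM in metal-ion replicates 1, 2 and 3, against 376, 394 and 356 FPKM in control replicates 1, 2 and 3. Replicates 1 and 3 of the metal-ion group lay below every control, and replicate 2 lay inside the control range, just above control replicate 3. In CPM the means were 514 ± 78.9 in metal-ion and 635 ± 37.2 in control mycelia (SD, n = 3 each), a log2 fold change of -0.30 with an SE of 0.13 (edgeR adjusted p = 0.147) and an unadjusted 95% interval of -0.59 to -0.02. Without metal-ion replicate 2 DLD1 was called lower, at -0.44 ± 0.09 (edgeR adjusted p = 0.00294). That library is the one that differed most from its group across all genes.

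FDH1 had 191, 170 and 198 FPKM in metal-ion replicates 1, 2 and 3, against 152, 147 and 148 FPKM in control replicates 1, 2 and 3. Every metal-ion library lay above every control, and the control libraries were close together, with a CV of 1.75% against 7.77% in the metal-ion group. The size of the difference followed the scaling. In TMM-scaled CPM the means were 217 ± 13.9 in metal-ion and 188 ± 2.54 in control mycelia (SD, n = 3 each), with a log2 fold change of 0.21, an SE of 0.09 (edgeR adjusted p = 0.168) and an unadjusted 95% interval of 0.00 to 0.41. Scaled by total counts alone the log2 fold change was 0.32 ± 0.09 and passed (edgeR adjusted p = 0.0457), but that scaling also moved the median of all genes to 0.14. Relative to the median of all genes the FDH1 difference was 0.18 under both scalings. Limma on log2(FPKM + 1) gave 0.32 and also called FDH1 (adjusted p = 0.0389). That fit too moved the median of all genes, to 0.12, and relative to it the FDH1 difference was 0.20. Without the filter limma did not call FDH1 (limma adjusted p = 0.0513).

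AAD14 had 103, 100 and 128 FPKM in metal-ion replicates 1, 2 and 3, against 39.3, 33.2 and 32.5 FPKM in control replicates 1, 2 and 3. The lowest metal-ion library stood far above the highest control, and metal-ion replicate 3 was the highest of the 6. These levels rested on 3080, 3330 and 3844 counts in metal-ion and on 1134, 1035 and 933 counts in control replicates 1, 2 and 3. By FPKM the gene ranked between place 866 and 1114 in metal-ion libraries and between place 2499 and 2928 in controls. The CPM means were 90.5 ± 13.8 in metal-ion and 31.0 ± 3.13 in control mycelia (SD, n = 3 each), a 2.92-fold difference with an unadjusted 95% interval of 2.40 to 3.55. For AAD14 the log2 fold change was 1.54 with an SE of 0.13 (edgeR adjusted p = 3.10e-05), and 114 of the 9048 tested genes had a higher one. AAD14 was called higher under all 17 alternatives, at log2 fold changes of 1.42 to 1.65.

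**Figure D2:**
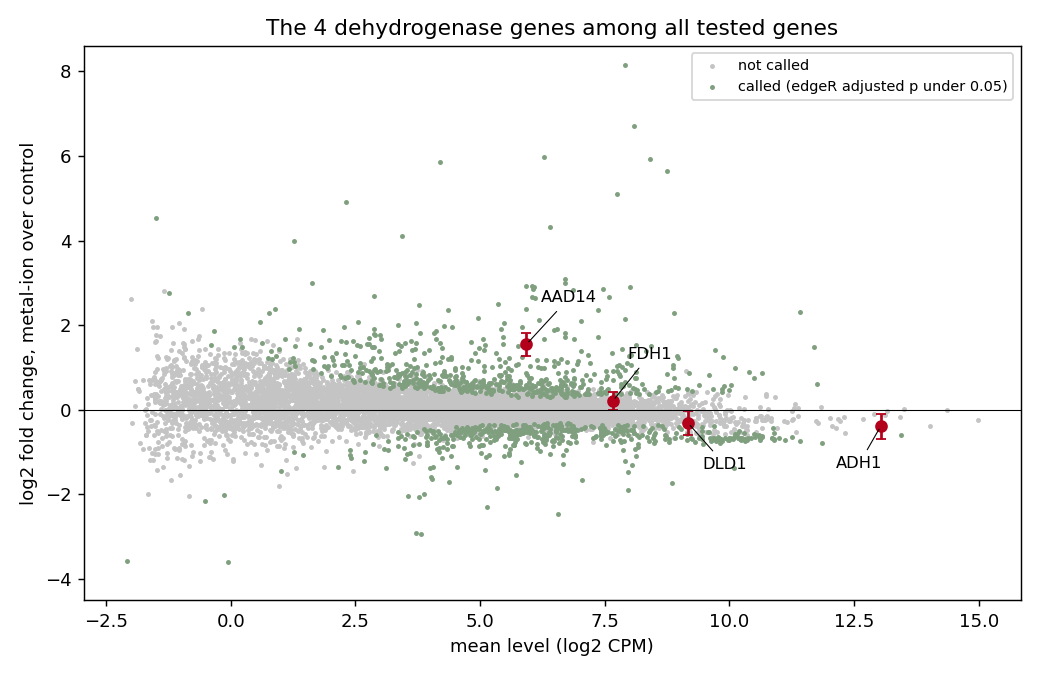
Log2 fold change, metal-ion over control, against mean level in log2 CPM for 9048 tested genes (grey, not called; green, called at an edgeR adjusted p under 0.05), with the 4 dehydrogenase genes in red and their unadjusted 95% intervals. AAD14 lies above the bulk of genes of its level, and ADH1 lies at the abundant end, where 72 of the 89 other genes of the most abundant 1% are below 0.

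The 4 genes kept the same order of level in both groups, ADH1 above DLD1 above FDH1 above AAD14. In metal-ion mycelia their mean levels were 3913 ± 405, 327 ± 29.9, 186 ± 14.5 and 110 ± 15.2 FPKM, and in controls 4739 ± 156, 375 ± 18.9, 149 ± 2.61 and 35.0 ± 3.71 FPKM (SD, n = 3 each). Neighbours in that order did not overlap over the libraries of either group. In metal-ion mycelia the means of ADH1 and DLD1, at the top of the order, were lower and those of FDH1 and AAD14 higher than in controls.

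A ratio of 2 genes within a library does not depend on a single scaling factor for that library, and the 6 pairs were compared on the log2 ratio of FPKM. It does move with an offset that follows abundance, under which ADH1 over FDH1 came to -0.26 and ADH1 over DLD1 turned to 0.17, each as the difference of the genes' log2 fold changes. ADH1 stood at 35.6 ± 1.37 times the level of AAD14 in metal-ion and at 136 ± 15.8 times in control mycelia (SD, n = 3 each), a log2 difference of -1.93 ± 0.10 (SE). ADH1 over FDH1 was 21.0 ± 1.64 in metal-ion and 31.8 ± 1.43 in control mycelia, a log2 difference of -0.60 ± 0.08. For these pairs no metal-ion library reached the control range. The log2 differences were -1.85 ± 0.18 for DLD1 over AAD14, -1.33 ± 0.10 for FDH1 over AAD14 and -0.52 ± 0.14 for DLD1 over FDH1, and in each the groups did not overlap either. Each of these 5 pairs had an exact two-sided permutation p = 0.1, the smallest that 3 against 3 libraries allow, and 0.12 adjusted over the 6 pairs. The pairs share genes, so they are not separate results, and how often pairs of other genes do not overlap was not counted. ADH1 over DLD1 was 12.05 ± 1.81 in metal-ion and 12.6 ± 0.365 in control mycelia, and the groups overlapped (log2 difference -0.08 ± 0.13, exact permutation p = 0.7). The ADH1 to DLD1 ratio spread more between metal-ion than between control libraries, and its log2 difference was 0.030 without metal-ion replicate 2.

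**Figure D3:**
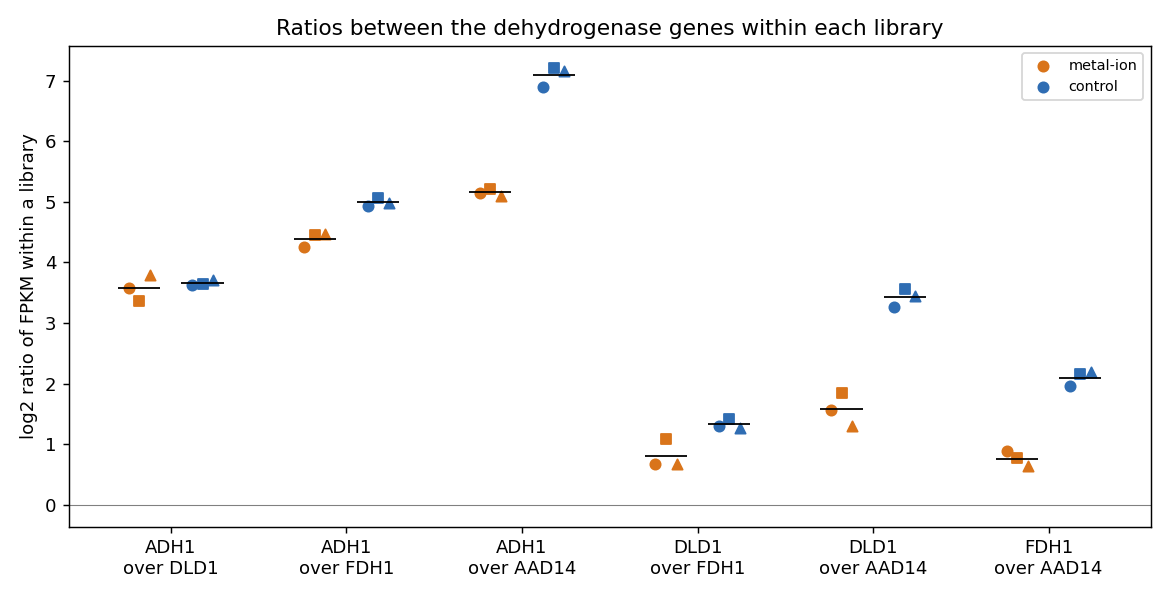
Log2 ratio of FPKM between pairs of the 4 genes within each of 3 metal-ion (orange) and 3 control (blue) libraries, with circles, squares and triangles for replicates 1, 2 and 3 and a line at each group mean. The groups overlap for ADH1 over DLD1 and do not overlap for the other 5 pairs. The pairs share genes, and how often pairs of other genes do not overlap was not counted.

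Together the 4 genes took 0.782, 0.806 and 0.932% of all counts in metal-ion replicates 1, 2 and 3, against 0.988, 1.03 and 0.973% in control replicates 1, 2 and 3. ADH1 alone made up 89.1 to 90.8% of that sum in metal-ion libraries and 91.5 to 92.0% in controls, so the sum mainly reads ADH1. Without ADH1 the other genes took 0.0850 ± 0.00373% of counts in metal-ion and 0.0822 ± 0.00338% in control mycelia (SD, n = 3 each), a difference within the spread of either group.

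ADH1 took 0.701, 0.718 and 0.846% of counts in metal-ion replicates 1, 2 and 3, against 0.904, 0.9503 and 0.895% in control replicates 1, 2 and 3. The DLD1 share was 0.0531 ± 0.00508% in metal-ion and 0.0611 ± 0.00318% in control mycelia, and the FDH1 share was 0.0225 ± 0.00170% in metal-ion and 0.0181 ± 0.000399% in control mycelia (SD, n = 3 each). AAD14 took 0.00938 ± 0.00130% in metal-ion and 0.00299 ± 0.000331% in control mycelia. The shares of ADH1, FDH1 and AAD14 did not overlap between groups (exact two-sided permutation p = 0.1 each, the smallest possible), while those of DLD1 did (p = 0.2, exact permutation). Counting error was small beside these differences. The 95% Wilson interval of a share reached at most 0.392% of the share to either side for ADH1 and at most 6.42% for the control AAD14 shares, and it covers counting error only.

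Other genes of the same pathways were counted from lists of symbols, which name only part of them because 882 of the 9836 identifiers have a symbol. With the 4 genes left out, the lists held 27 tested genes, of which 3 rose and 1 fell (14.8% called, against 12% of all tested genes), with a median log2 fold change of -0.18 against 0.03 over all tested genes. Without metal-ion replicate 2, 4 of the 27 were called higher and 14 lower, in a fit that called 14.4% of its 9138 tested genes higher and 16.5% lower. With any other library left out, 2 or 3 were called higher and 0 lower. Those fits called 254 to 333 of all tested genes higher and 94 to 139 lower. Under the abundance offset the median of the 27 was -0.0014. No symbol of pyruvate decarboxylase, of another alcohol dehydrogenase or of acetaldehyde dehydrogenase matched, so ADH1 is the only gene of the step from pyruvate to ethanol that could be followed by name.

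AAD14 was placed by its symbol in the list of fusel alcohol genes. In that pathway amino acids are turned into alcohols through a transaminase, a decarboxylase and a reducing dehydrogenase. Whether AAD14 takes part in it was not tested. The other members of the list here were the transaminase genes BAT2 and ARO8. BAT2, named for a branched-chain amino acid transaminase, rose to 365 ± 22.5 CPM in metal-ion mycelia, against 258 ± 8.14 CPM in controls (log2 fold change 0.50 ± 0.10, edgeR adjusted p = 0.00989). ARO8, named for an aromatic amino acid transaminase, averaged 153 ± 18.6 CPM in metal-ion and 120 ± 8.56 CPM in control mycelia and missed the threshold (log2 fold change 0.35 ± 0.11, edgeR adjusted p = 0.0648). DESeq2 called ARO8 higher (adjusted p = 0.0396), as did limma on log2(FPKM + 1) and on log2(FPKM + 0.1). So did edgeR with total counts only, with the replicate number as a block, and without metal-ion replicate 2. These fits called 729 to 1320 of all tested genes higher, against 603 in the reported fit. BAT2 lost its call without control replicate 1 or 2 (adjusted p = 0.0739 and 0.0639).

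For formate and one-carbon metabolism, MET26, named for methionine synthase, rose (log2 fold change 1.48 ± 0.15, edgeR adjusted p = 0.000121). MTD1, named for a methylenetetrahydrofolate dehydrogenase, averaged 53.4 ± 6.33 FPKM in metal-ion and 57.4 ± 3.42 FPKM in control mycelia and stayed under the threshold (log2 fold change -0.21 ± 0.13, edgeR adjusted p = 0.321). FDH1, named for an enzyme that removes formate, stood between them at 0.21. In the list of alcohol oxidase and methanol use, AOX1_3 rose, at 151 ± 29.7 FPKM in metal-ion and 41.7 ± 7.97 FPKM in control mycelia (log2 fold change 1.73 ± 0.15, edgeR adjusted p = 4.45e-05). The symbol AOX1 is used for alcohol oxidase in methylotrophic yeasts and for the alternative oxidase of mitochondria in other organisms, and the annotation used here does not say which. AOX1_1 and AOX1_2 did not pass and were low, at 0.767 ± 0.0566 and 6.09 ± 1.42 FPKM in metal-ion mycelia, against 0.928 ± 0.037 and 4.95 ± 0.618 FPKM in controls. AOX1_2 overlaps a neighbour's model, and since the kit does not mark strand its reads are uncertain. CTA1, named for catalase, was not called (log2 fold change 0.21 ± 0.17, edgeR adjusted p = 0.455).

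Pyruvate that is not fermented enters mitochondria and the TCA cycle, and the enzyme DLD1 is named for adds pyruvate from lactate. Under TMM scaling all 9 genes of that list had negative log2 fold changes, with a median of -0.18, while 8 of the 9 had under total counts (median -0.079) and 7 of the 9 under the abundance offset (median -0.054). Of the 9, edgeR called 0, against 12% of all tested genes. Unadjusted, 3 were lower at p under 0.05, as 2621 of the 9048 tested genes had such a p in either direction. DESeq2 called 2 of the 9 lower, and 783 of its 8753 tested genes. Limma on log2(FPKM + 1) called 1 lower, and 350 of its 8427. In edgeR, upper quartile scaling and a block for the replicate number each called 1 lower, and 540 and 636 of all 9048. The most abundant of the 9 were PDB1 and PDA1, named for subunits of pyruvate dehydrogenase, and MDH1, named for malate dehydrogenase. PDA1 averaged 444 ± 22.4 FPKM in metal-ion and 532 ± 22.7 FPKM in control mycelia (log2 fold change -0.37 ± 0.12, edgeR adjusted p = 0.0712). PDB1 stood at 557 ± 19.3 and MDH1 at 530 ± 67.7 FPKM in metal-ion mycelia, against 566 ± 17.9 and 559 ± 31.8 FPKM in controls. Without metal-ion replicate 2, 6 of the 9 were called lower, in a fit that called 16.5% of all tested genes lower. With any other library left out, 0 of the 9 were called, in fits that called 94 to 139 of all tested genes lower. ICL1, named for isocitrate lyase of the glyoxylate cycle, did not pass and varied widely in metal-ion mycelia, at 58.6 ± 25.6 FPKM against 36.6 ± 6.86 FPKM in controls (edgeR adjusted p = 0.145).

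Among 8 genes added to the lists for other dehydrogenases and for partners of the 4 enzymes, 1 fell and 0 rose (edgeR). Of all tested genes 5.32% were called lower and 6.66% higher. At an unadjusted edgeR p under 0.05, 2 of the 8 fell and 0 rose, as 2621 of the 9048 tested genes had such a p. DESeq2 also called 2 lower and 0 higher, and of its 8753 tested genes 783 lower and 799 higher. The gene that fell in the reported fit was GLD2, a symbol used for a glycerol dehydrogenase in filamentous fungi. It had 135 ± 12.9 FPKM in metal-ion and 162 ± 7.11 FPKM in control mycelia (log2 fold change -0.38 ± 0.11, edgeR adjusted p = 0.0444). GLD2 was called under 7 of 17 alternatives. NDH2, a symbol used for an alternative NADH dehydrogenase, just missed the threshold (log2 fold change -0.43 ± 0.13, edgeR adjusted p = 0.0510). CYT1, named for cytochrome c1, a carrier next to the acceptor of DLD1 electrons in S. cerevisiae, had 305 ± 65.4 FPKM in metal-ion and 324 ± 16.5 FPKM in control mycelia and did not pass (edgeR adjusted p = 0.491). The most abundant of the 8 were GLD1, GND1 and MCR1, none of which passed, at log2 fold changes of -0.09, -0.20 and -0.16. Without metal-ion replicate 2, 6 of the 8 were called lower, among them CYT1 (log2 fold change -0.44 ± 0.08, edgeR adjusted p = 0.00221), MCR1, GND1 and NDH2, in the fit that called 16.5% of all tested genes lower. With any other library left out, 0 of the 8 were called, in fits that called 94 to 139 of all tested genes lower. GND1 is named for 6-phosphogluconate dehydrogenase and MCR1 for a cytochrome b5 reductase.

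The 4 genes lie apart from each other in the annotation, each on a different sequence, and none overlaps a neighbouring gene model. Of the 24 annotated genes within 3 places of one of them, 4 rose and 1 fell (20.8% called, against 12% of all tested genes). AAD14 had one such neighbour, MAP00_002580, the next gene on one side. MAP00_002580 had 745, 914 and 918 counts in metal-ion replicates 1, 2 and 3, against 287, 289 and 274 counts in control replicates 1, 2 and 3. It rose by a log2 fold change of 1.42 ± 0.14 (edgeR adjusted p = 0.000148), close to the 1.54 of AAD14, and was called under all 17 alternatives. The next gene on the other side, MAP00_002578, had 34.7 ± 3.20 CPM in metal-ion and 30.4 ± 2.71 CPM in control mycelia and was not called (log2 fold change 0.19 ± 0.11, edgeR adjusted p = 0.299). The annotation gives MAP00_002580 and MAP00_002578 no symbol.

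FDH1 lies next to RINO2, named for inositol-3-phosphate synthase. RINO2 rose by a log2 fold change of 2.32 ± 0.12 (edgeR adjusted p = 1.10e-06), while FDH1 stood at 0.21 and the gene on its other side, MAP00_003134, at -0.46 ± 0.17 (edgeR adjusted p = 0.114). On one side of DLD1, MAP00_007443 and MAP00_007442 rose by 0.37 ± 0.10 and 0.50 ± 0.10 on the log2 scale (edgeR adjusted p = 0.0419 and 0.00913), and were called under 11 and 14 of 17 alternatives. DLD1 itself had the opposite sign, and the 3 genes on its other side did not pass. Next but one to ADH1, MAP00_001263 fell by 0.47 on the log2 scale (edgeR adjusted p = 0.0261) and was called under 8 of 17 alternatives.

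**Figure D4:**
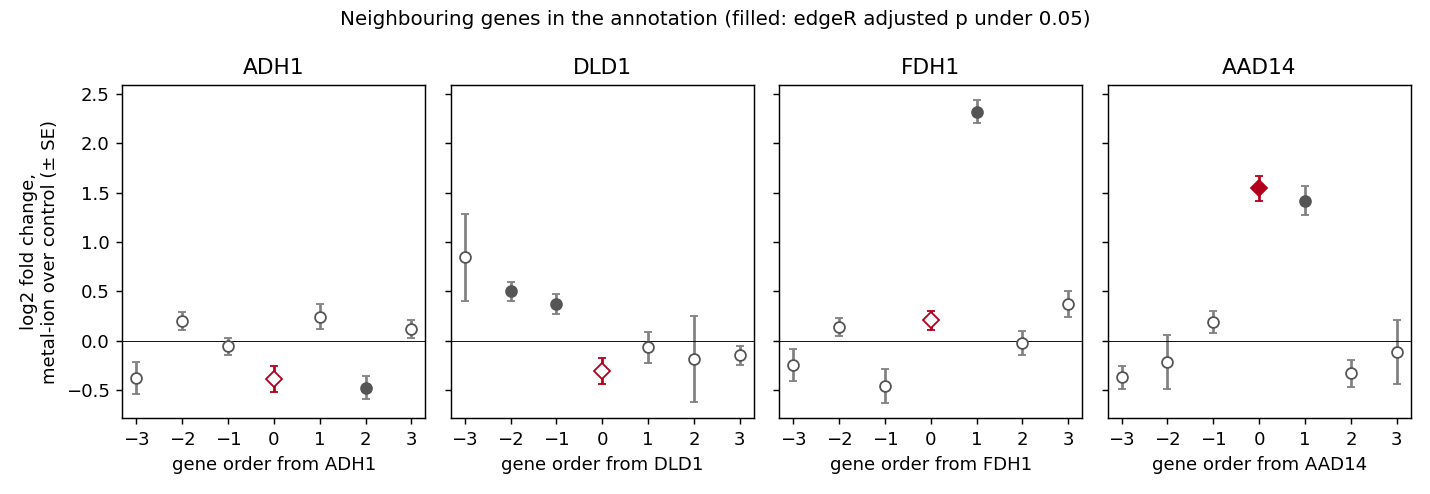
Log2 fold change, metal-ion over control, with its SE for the 3 annotated genes on either side of each of the 4 dehydrogenase genes (red diamond at 0), in gene order; filled symbols passed the edgeR test. AAD14 and the gene next to it have like values, while RINO2 next to FDH1 stands far above it.

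The genes most like each of the 4 were found by Pearson's r of log2 CPM over the 6 libraries, among 6263 other tested genes that averaged 10 CPM or more. The 6 libraries fall into 2 groups. A high r can rest on the difference between the groups, on the pattern of libraries within a group, or on both. These were not told apart. For DLD1, whose groups overlap, r also follows metal-ion replicate 2. It does not measure the size of a difference and is given as a description. AAD14 was most like MAP00_007458 (r = 0.998), MAP00_004677 (0.998) and MAP00_000194 (0.997), all called higher. Their log2 fold changes were 2.29, 0.36 and 1.18, against 1.54 for AAD14. Among genes with a symbol AAD14 was most like MDR1_2 (0.996), named for a multidrug transporter, and RINO2 (0.987). FDH1 was most like MAP00_001104, MAP00_008452 and MAP00_000296 (r = 0.990, 0.990 and 0.987), none of which passed, and among genes with a symbol ARG2 (0.986), which did not pass, and PEP2 (0.976), which was called higher.

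ADH1 was most like MAP00_008231 (r = 0.998), MAP00_000590 (0.991) and MAP00_008982 (0.986), and among genes with a symbol LIA1 (0.986) and LCL2 (0.974), none of which passed. DLD1 was most like MAP00_005791, ATP9 and MAP00_003394 (r = 0.998, 0.997 and 0.997), and ATP9, named for a subunit of the mitochondrial ATP synthase, and FPR1B (0.996) were the nearest with a symbol. ATP9 averaged 1387 CPM in metal-ion and 1859 CPM in control mycelia and was not called (log2 fold change -0.42 ± 0.17, edgeR adjusted p = 0.136). An r of at least 0.9 was reached by 183 genes for ADH1, 923 for DLD1, 251 for FDH1 and 390 for AAD14. DLD1, in which metal-ion replicate 2 lay among the controls, had the most such genes of the 4. The reason for this was not tested.

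**Figure D5:**
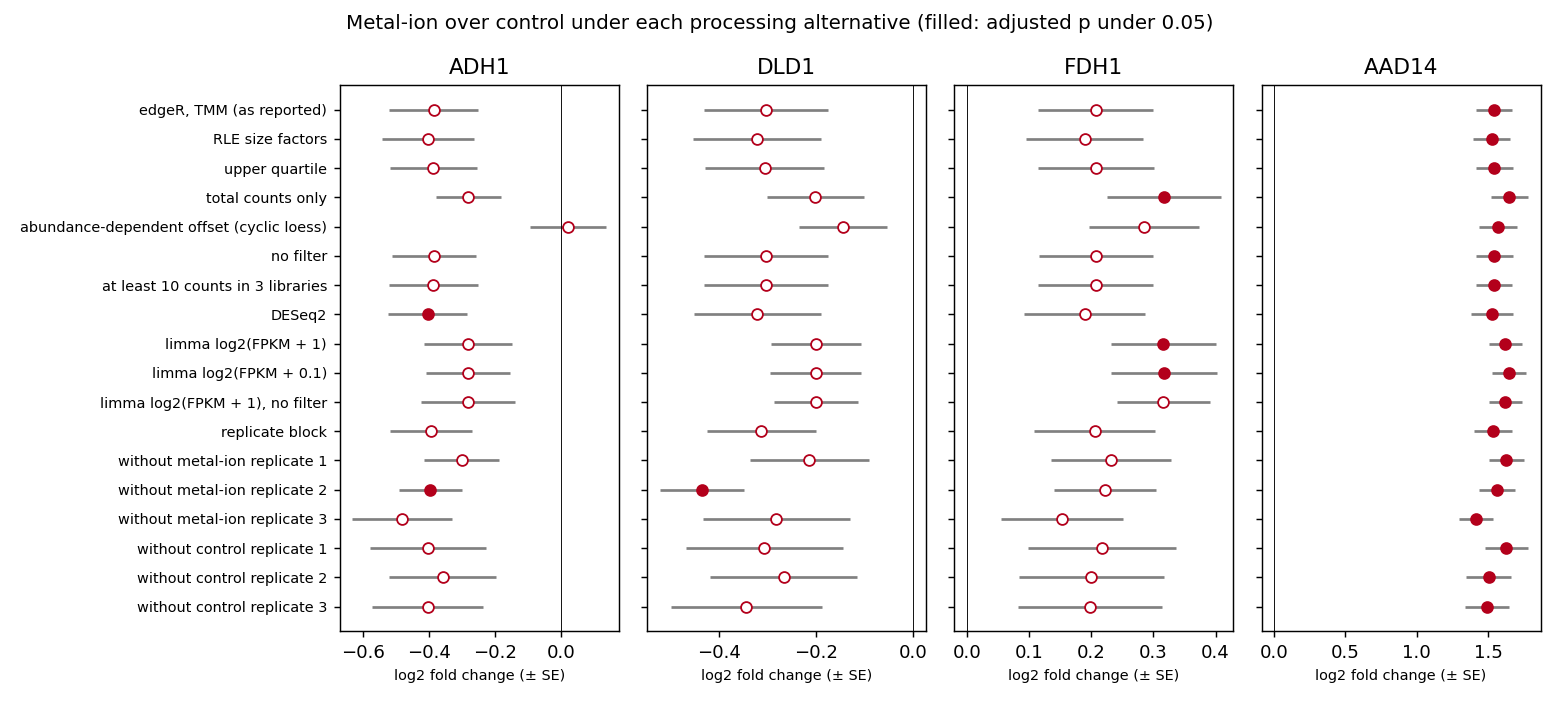
Log2 fold change, metal-ion over control, with its SE for each of the 4 genes under the reported fit (top) and each of 17 alternatives, filled where the adjusted p was under 0.05; each panel has its own horizontal scale. AAD14 is filled throughout, ADH1 crosses 0 under the abundance offset, and DLD1 is filled only without metal-ion replicate 2.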

How the data were processed

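Per the labels' protocols, mRNA was enriched from TRIzol-extracted RNA, made into NEBNext Ultra libraries, a kit that does not mark strand, and sequenced on an Illumina HiSeq. TopHat2 was used, per the submitters' processing notes. The counter, the build and the annotation are not named there or in the labels (not given in the sources used here). Whole-number counts and FPKM values were deposited by the authors for 9836 genes in 6 libraries.

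Symbols and gene order came from assembly ASM2599979v1, matched by locus tag (9151 identifiers matched). No coordinates are given, since the authors' build is not named. Counts were tested with edgeR 4.0.16 in R 4.3.3 (quasi-likelihood, two-sided, TMM, default filter, 9048 genes kept, Benjamini-Hochberg over them), and the script was tested on simulated data. DESeq2 1.42.0 and limma 3.58.1 served as alternatives. For limma, genes with FPKM of at least 1 in 3 libraries were kept. Standard errors were derived from fold changes and F statistics. Shares and within-library ratios were compared with exact permutation tests over libraries.

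Nothing in the labels says that libraries came from separate cultures, so the spread that p-values rest on may be technical. All replicate pairs differed beyond sampling noise (chi-square over degrees of freedom of at least 14.3), so each library counted as 1 replicate. The genes and lists were chosen with earlier results of these data known, and 8 genes were added to the lists after the tables were opened. Named are the 4 genes, their neighbours within 3 places, the genes most like them, and from each list the called genes and up to 3 of the most abundant others; NDH2 and CYT1 fall outside this rule and were chosen after their values were seen. Proteins of similar sequence were not analysed here.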

Additional observations from a re-analysis of the deposited data

How the results depend on the processing

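AAD14 kept its call and direction under all 17 alternatives, with log2 fold changes of 1.42 to 1.63 over the fits without a library (edgeR). ADH1 had 0.022 with the abundance offset, where its sign turned, and -0.40 with DESeq2, which called it; over the fits without a library it ranged from -0.48 to -0.30, called only without metal-ion replicate 2. DLD1 ranged from -0.44 to -0.21 over those fits and was called only without metal-ion replicate 2. FDH1 was called with total counts only, limma on log2(FPKM + 1) and limma on log2(FPKM + 0.1), at 0.32, 0.32 and 0.32, and ranged from 0.15 to 0.23 over the fits without a library, none of which called it. The cause of these changes was not tested.

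All 32 alternative values of the shares kept their direction. For ADH1, FDH1 and AAD14, whose groups did not overlap, leaving out a library could not change it. The abundance offset was not among these alternatives. Without each library in turn the share differences in percentage points ranged from -0.207 to -0.135 (ADH1), -0.0108 to -0.00601 (DLD1), 0.00372 to 0.00538 (FDH1) and 0.00564 to 0.00681 (AAD14). Of 54 alternative values of the ratios 52 kept their direction. Many of them could not change it. Ratios of counts nearly repeat those of FPKM, and pairs whose groups did not overlap cannot turn when a library is left out. ADH1 over DLD1 turned to 0.030 without metal-ion replicate 2, in a range of -0.19 to 0.030. It also turned to 0.17 with the abundance offset, an alternative for ratios that was chosen after seeing the data.

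The number of called genes was 1084, and 1582 with DESeq2, 658 with limma on log2(FPKM + 1) and no filter, and 348 to 2829 without a library. Of calls, 603 were higher and 481 lower, against 860 and 344 with total counts only, and 800 and 350, 782 and 343, and 502 and 156 with limma on log2(FPKM + 1), on log2(FPKM + 0.1) and with no filter. Of 27 list genes 1 was called lower, where 481 of all genes were. It was 2 with median-of-ratios factors, 3 with upper quartile and 4 with DESeq2, which called 525, 540 and 783 of all genes lower. It was 0 with total counts only, the abundance offset or limma without a filter, which called 344, 431 and 156 of all genes lower. Without a library 0 to 14 list genes were called lower and 2 to 4 higher. Those fits called 94 to 1509 of all genes lower and 254 to 1320 higher.

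With the replicate number as a block, edgeR called 1365 genes, 636 of them lower. It called 3 list genes lower, and of the 4 genes AAD14 alone (log2 fold change 1.54). Same-numbered libraries deviated together weakly, at correlations of 0.098, 0.133 and 0.057. Yet 5 of 6 libraries correlated best with their own number, so it is not settled whether the numbers mark pairs. The reported fit had no block because the labels give no method of testing. Depth limits the AAD14 control level most, at 933 to 1134 counts a library.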
